A study of Mus musculus with 4 samples.

Results

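Elavl proteins were mapped on RNA in N2A cells, a mouse neuroblastoma line, and in mouse cortex, and 3049 of the 7335 N2A sites (41.6%, 95% Wilson interval 40.4 to 42.7) overlapped a cortex site by at least 1 nt on the same chromosome and strand. These sites are called shared sites here. They were selected on measured values, namely the positions of the peaks in both deposited lists, so the size of the overlap is given as a description. The same count on the opposite strand gave 7 N2A sites (0.0954%). The cortex list held 97775 sites, and 3042 of them (3.11%) were touched by an N2A site. The N2A sites that touched no cortex site, 4286 in number, are called other N2A sites.

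The N2A list came from 1 sample of irradiated cells whose fragments carried a degenerate 5′ linker of 7 nt. The cortex list came from 3 samples of brain tissue with a degenerate 5′ linker of 25 nt, and its name carries the word for 2 months, which the labels do not explain. All samples were irradiated with ultraviolet light, and the sources used here do not state genotype, sex, any other treatment, the antibody or read numbers. Linker length and group cannot be told apart. For every peak, 50 or 51 nt wide, the lists give a position, a strand and the p-value of the authors' peak caller. They hold no count, so depth is unknown and no spread between samples could be computed. N2A is a tumour-derived line grown in culture, whereas cortex holds many cell types, and the overlap is that of 1 list with 1 list. In bulk samples fewer cells of a type and less RNA per cell cannot be told apart. Intervals cover counting error only, because sites are not replicates.

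HITS-CLIP fixes a protein to the RNA it touches with ultraviolet light, purifies the complex with an antibody and sequences the RNA fragments left on the protein. The ELAV-like family has the widely made member Elavl1, also known as HuR, and the mainly neuronal members Elavl2, Elavl3 and Elavl4. Runs of U and AU-rich elements are its known targets, in introns and 3′ untranslated regions, and binding there is known to affect splicing, stability and translation.

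For most sites no sequence was used here, because the reference held only the windows around gene starts, and a site in such a window is not typical of the set. The sequences of 3 shared sites that lay wholly inside a RefSeq promoter window of GRCm38.p6 (250 bases before to 50 after a gene start) are shown to let a reader see what the overlap means at the level of bases. Each is written as DNA, 5′ to 3′ on the strand of the site, from the deposited start to the deposited end with both counted, and capitals mark the bases that also lie in the cortex site.
H2ac4: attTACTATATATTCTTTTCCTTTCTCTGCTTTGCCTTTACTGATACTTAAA
Spg20: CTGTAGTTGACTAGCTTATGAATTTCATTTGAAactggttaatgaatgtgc
Gse1: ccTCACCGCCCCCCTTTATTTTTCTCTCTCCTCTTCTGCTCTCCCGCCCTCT

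The H2ac4 site, in a histone H2A gene, lay at chr13:23751074-23751125 on the plus strand. The Spg20 site lay at chr3:55137239-55137289 on the plus strand, in a window listed for the neighbouring gene Ccdc169. The Gse1 site lay at chr8:120488644-120488695 on the plus strand. The share of T was 51.9% in the H2ac4, 39.2% in the Spg20 and 38.5% in the Gse1 sequence.

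The letters TTTTT were found in the Gse1 sequence and ATTTA in the H2ac4 sequence, and neither was found in that of Spg20. The ATTTA of H2ac4 starts at the first printed base and lies partly outside the cortex site, and if starts count from 0 it is not wholly inside the N2A site either. On the other strand neither was found in any of the 3. In all promoter windows cut into stretches of 51 nt, 5.65% held TTTTT on the listed strand and 10.8% on either strand, and 4.19% and 7.99% held ATTTA. With 3 sequences from gene starts this is a description of the letters alone. The Spg20 site had a p of 0.000929 in N2A and 5.14e-07 in cortex, and its N2A edge lay 19 nt downstream of the cortex edge. The offset was -3 nt in H2ac4 and -2 nt in Gse1.

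Most shared sites did not lie exactly on top of their cortex partners, and the larger number were displaced by a few bases in the direction of transcription. The offset was taken as the 5′ edge of the N2A site minus that of the cortex site, with positive values for an N2A site farther downstream. Its median was 6 nt (95% interval of the median 5 to 6), with quartiles of -1 and 14 nt and with 5% and 95% of the sites at -24 and 33 nt. The N2A site began downstream in 2105 of 3049 sites (69.0%, 67.4 to 70.7), upstream in 831 (27.3%) and at the same base in 113 (3.71%). Both strands gave a median of 6 nt, and the N2A site began downstream in 69.0% of 1506 sites on the plus strand and 69.1% of 1543 on the minus strand.

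Although an overlap of 1 nt was enough, most pairs overlapped by well over that. The median overlap was 42 nt, with quartiles of 34 and 47 nt. The 5′ edges lay within 5 nt in 1043 sites (34.2%), within 10 nt in 1749 (57.4%) and within 25 nt in 2602 (85.3%). An overlap of at least 25 nt was found in 2616 sites (85.8%), and one of at least 45 nt in 1130 (37.1%). The start and end were identical in 50 sites (1.64%).

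In steps of 10 nt, 950 sites had an offset from -5 to 4 nt and 942 from 5 to 14 nt, against 223 from -15 to -6 nt and 397 from 15 to 24 nt. Farther out the counts levelled at 50 to 96 sites per 10 nt between -45 and -16 nt upstream and between 35 and 44 nt downstream. Just inside the threshold, 80 sites overlapped by 1 to 5 nt and 77 by 6 to 10 nt. Just outside it, 82 other N2A sites lay 0 to 4 nt from a cortex site and 87 lay 5 to 9 nt away. The count of sites thus did not step at the threshold. Beyond it the direction was the other way: the 5′ edge lay 51 to 100 nt downstream of the nearest cortex site in 323 N2A sites and 51 to 100 nt upstream in 404.

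**Figure D1:**
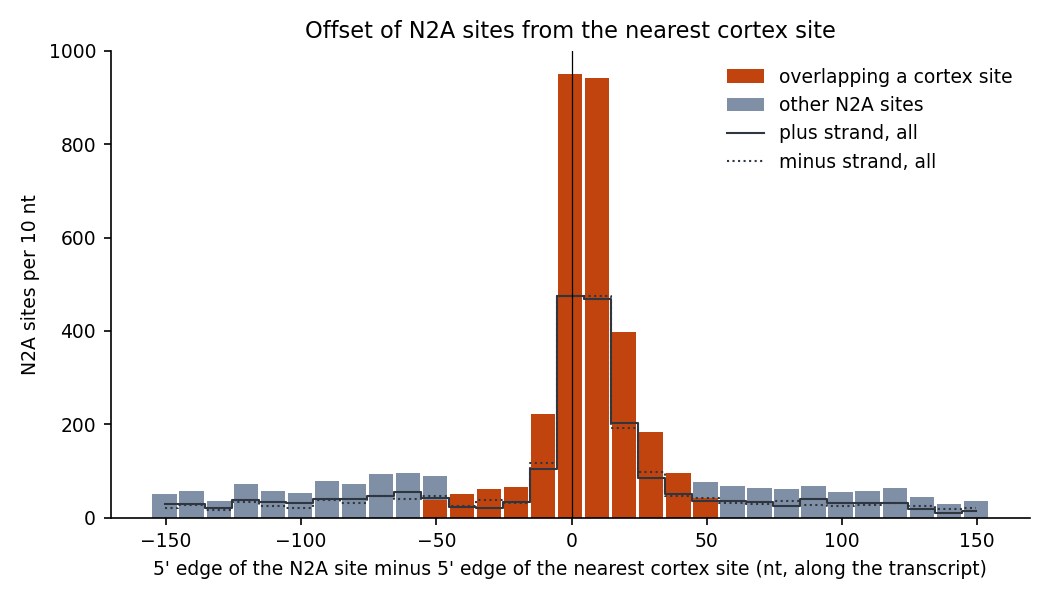
Number of N2A sites per 10 nt of offset (5′ edge of the N2A site minus that of the nearest cortex site, in nt along the transcript), with shared sites below other N2A sites in each bar and the totals of the plus and minus strands as lines. The highest bars, 950 and 942 sites, lie at -5 to 4 and 5 to 14 nt, and both strands show the same shift to the right of 0.

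The downstream displacement was found in strong and in weak sites, and the downstream share was higher in the strong ones. Ranked by N2A p, the strongest 25% of shared sites began downstream in 73.9% (70.7 to 76.9) and the weakest 25% in 64.8% (61.4 to 68.1), with medians of 6 and 5 nt. Ranked by the p of the cortex partner, the shares were 73.9% and 64.7%. In the 44 sites with p under 1e-50 in both lists, the middle 50% of the offsets spanned 8.5 nt, against 15 nt in all shared sites, and 33 (75%) began downstream. The median was 6 nt within 5 kb of a gene end and 7 nt farther away.

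Of the shared sites, 2891 (94.8%) lay in a single coding gene, against 92.3% of other N2A sites and 93.6% of cortex sites. Another 26 lay where coding genes overlap, 5 only on the opposite strand of a coding gene and 75 (2.46%, 1.97 to 3.07) in no gene, against 4.67% (4.07 to 5.34) of other N2A sites. The reference gave gene spans without exons, so the untranslated regions could not be marked, and the distance to the end of the gene span was measured in their place.

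Shared sites lay near the end of their genes, as other N2A sites did and as most cortex sites did not. Within 5 kb of the gene end lay 2281 of 2891 shared sites (78.9%, 77.4 to 80.3), 3215 of 3954 other N2A sites (81.3%, 80.1 to 82.5) and 18395 of 91493 cortex sites (20.1%). The median distance was 1.5 kb in shared sites, 1.48 kb in other N2A sites and 60.3 kb in cortex sites. The difference of shared minus other N2A sites was -2.41 percentage points (95% interval -4.34 to -0.500, Newcombe's method), and in genes over 20 kb, where distance has more room, it was -3.29 points (-5.65 to -0.945). With a window of 2 kb the difference was -1.68 points and its interval, -4.04 to 0.679, included 0. The median gene length was 38.1 kb for shared and 37.4 kb for other N2A sites.

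Shared sites were more frequent in the last 0.5 kb and at 20 to 100 kb from the end. In the last 0.5 kb lay 23.3% (21.8 to 24.9) of shared and 20.4% (19.2 to 21.7) of other N2A sites. Between 0.5 and 2 kb the order was the reverse, with 15.1% against 17.1% at 0.5 to 1 kb and 19.6% against 22.1% at 1 to 2 kb. At 20 to 100 kb from the end lay 8.23% (7.29 to 9.29) of shared and 6.07% (5.37 to 6.86) of other N2A sites, and beyond 100 kb lay 107 and 125 sites (3.70% and 3.16%). The first 5 kb of a gene held 68 shared sites (2.35%), against 2.48% of other N2A and 4.37% of cortex sites. Turned round, 41.5% of N2A sites within 5 kb of a gene end were shared and 45.2% of those farther away, a difference of -3.72 points (-6.68 to -0.771).

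**Figure D2:**
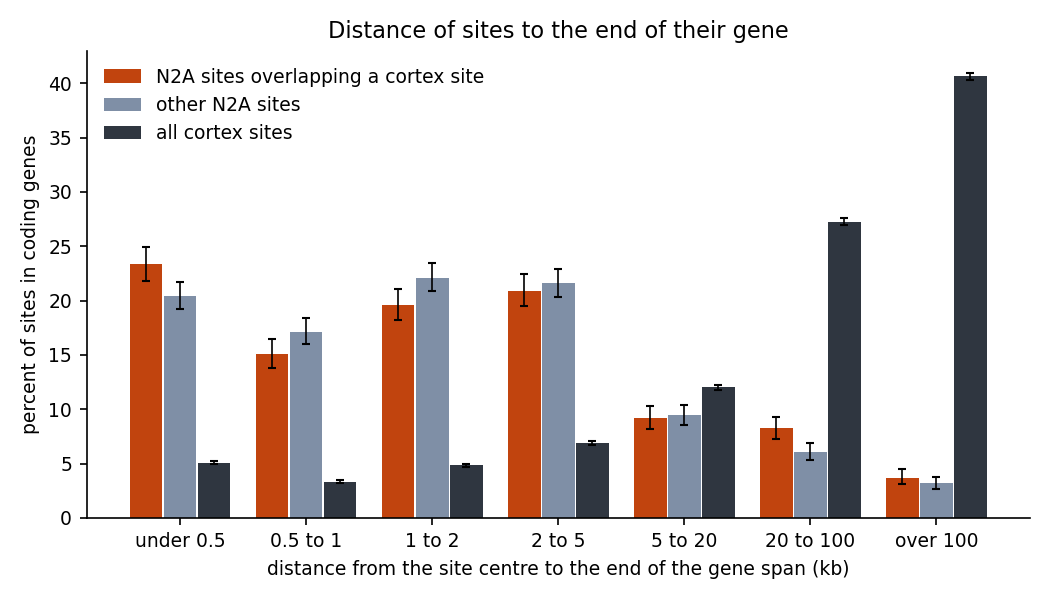
Percent of sites in coding genes by distance from the site centre to the end of the gene span (kb), for shared N2A sites, other N2A sites and all cortex sites, with Wilson 95% intervals as bars. Shared and other N2A sites fall mostly under 5 kb, and 40.6% of cortex sites lie over 100 kb away.

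Strong sites of either list were shared more often than weak ones. Strength was read as the deposited p within its own list. In the strongest 10% of the N2A list 407 of 734 sites (55.4%, 51.8 to 59.0) were shared, and in the weakest 10% 252 of 734 (34.3%, 31.0 to 37.8). In the cortex list the shares were 14.8% (14.1 to 15.5) in the strongest 10% and 0.859% (0.694 to 1.06) in the weakest. The stronger 50% of the N2A list was shared in 47.3% and the weaker 50% in 35.9%, a difference of 11.4 points (9.13 to 13.6), and among N2A sites within 5 kb of a gene end it was 12.3 points (9.67 to 14.8).

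Shared sites and their cortex partners each had lower p-values than the rest of their own list. The median p of shared sites was 0.00233, against 0.00974 in other N2A sites. The median p of the cortex partners was 1.2e-09, against 0.0107 in the other cortex sites, and 32.3% of partners had p under 1e-20, against 4.13% of other cortex sites. Across the 3049 pairs the ranks of the p-values in both lists had a Spearman correlation of 0.278, and across the 2281 pairs near a gene end it was 0.248. Pairs in 1 gene are not independent, and the correlation is a description.

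**Figure D3:**
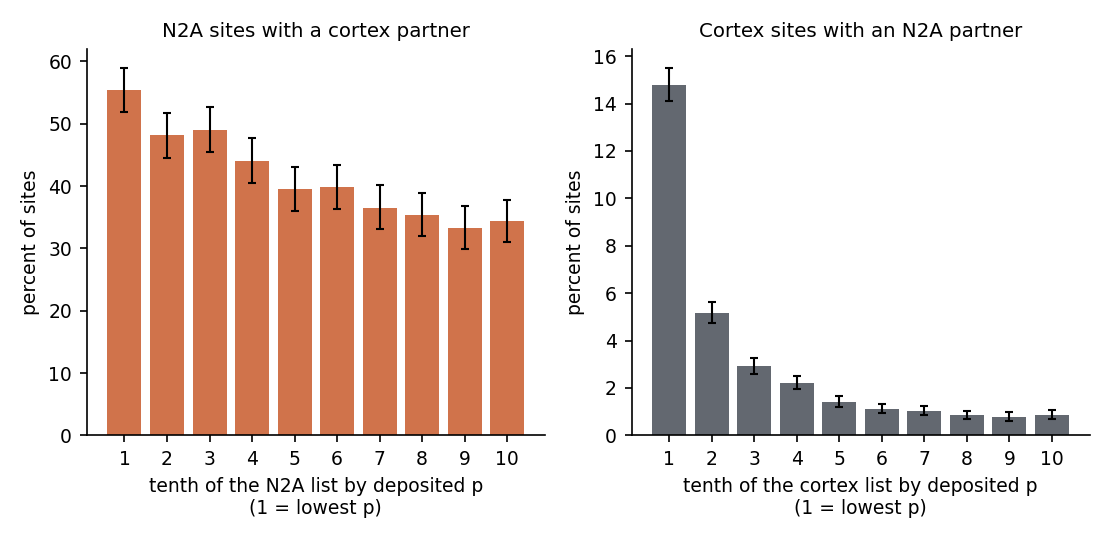
Percent of sites with a partner in the other list, in steps of 10% of the N2A list (left) and of the cortex list (right) ranked by deposited p, step 1 having the lowest p, with Wilson 95% intervals. The share runs from 55.4% to 34.3% in N2A and from 14.8% to 0.859% in cortex.

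The same order was found when the strongest site of each gene was set against the other sites, pooled over genes. Neither the shares nor the interval pair sites by gene, and genes with many sites weigh more among the others. In 1433 genes with at least 2 N2A sites and a cortex site, the strongest N2A site was shared in 765 (53.4%, 50.8 to 56.0), against 1393 of the other 3732 sites (37.3%, 35.8 to 38.9), a difference of 16.1 points (13.0 to 19.1). In 1775 genes with a shared site and at least 2 cortex sites, the strongest cortex site was a partner in 1033 (58.2%) and the other cortex sites were partners in 1687 of 23784 (7.09%). Within 5 kb of the gene end the shares were 60.1% and 22.0%. Because these genes were chosen for having a shared site, the rule itself makes some of their cortex sites partners. The other cortex sites were pooled over genes, and genes with many of them weigh more, so the gap was partly set in advance. Where a gene had 2 shared sites with a clear order, the stronger was the same in both lists in 258 of 387 genes (66.7%, 61.8 to 71.2), and with 3 shared sites in 74 of 140 (52.9%, 44.6 to 60.9). With 3 sites the same site comes first by chance less often than with 2, so these shares cannot be compared directly.

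Gaps between shared sites of a gene were wider than gaps between other N2A sites, although most of both sets lay near the gene end. Neighbouring shared sites of a gene lay a median of 1029 nt apart (953 gaps, quartiles 482 and 3446 nt), and neighbouring other N2A sites 504 nt (1855 gaps). Linked at 200 nt, 110 shared sites (3.80%, 3.17 to 4.57) fell into 55 pairs and none into a longer run, whereas 650 other N2A sites (16.4%, 15.3 to 17.6) fell into runs, the longest of 5 sites. The distance is bounded by the cortex list, because a shared site almost always had a cortex site of its own: 7 cortex sites touched 2 N2A sites each, and no N2A site touched 2 cortex sites. Within 5 kb of the gene end the median gap was 680 nt in shared, 404 nt in other N2A, 360 nt in all N2A and 484 nt in cortex sites. A subset of a list has wider gaps than the whole list, and the number of sites differed between the sets.

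The spacing of neighbouring shared sites was similar in both lists. Among 461 neighbours within 1 kb, no further cortex site lay between them in 365 (79.2%) and no further N2A site in 347 (75.3%). The spacing in N2A minus that in cortex had a median of 1 nt with quartiles of -14 and 13 nt, and it differed by at most 10 nt in 193 neighbours (41.9%) and by at most 25 nt in 339 (73.5%). The rule itself limits this difference, because each site must touch its partner. Among N2A sites within 5 kb of the gene end, the share that were shared rose with the number of cortex sites there. It was 0.232% of 431 sites with 0 cortex sites, 37.1% with 1, 43.1% with 2 and 46.0% with 3 to 4. With 5 to 9 it was 48.4%, and with 10 or more 52.3% (45.3 to 59.1). By the rule, more cortex sites give more chances of an overlap, so this rise was partly set in advance.

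Shared sites were found in 1938 coding genes, which is 8.85% of all 21900 coding genes, 64.8% of the 2991 coding genes with an N2A site and 70.9% of the 2733 with a site in both lists. Of these genes, 1329 had 1 shared site, 390 had 2 and 219 had 3 or more, with 28 genes at 5 or more and a maximum of 8. In 892 genes all N2A sites were shared, but only 159 of them had more than 1 N2A site. Another 795 genes had sites in both lists and none shared. The other N2A sites mostly lay in genes that cortex bound elsewhere: 3574 of 4286 (83.4%) were in a coding gene with a cortex site and 380 (8.87%) in a coding gene with none.

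The genes with the most shared sites, 8 each, were Lrrc58, which encodes a leucine-rich repeat protein, Cnot6l, a catalytic subunit of the CCR4-NOT deadenylase that shortens poly(A) tails, and Efna5, the Eph receptor ligand ephrin-A5. Lrrc58 had 12 N2A and 21 cortex sites, and its 8 shared sites lay 0.40 to 5.36 kb from the gene end. The strongest of them, at chr16:37883731-37883782 on the plus strand, had a p of 0 in N2A and 3.82e-65 in cortex and an offset of 3 nt. Cnot6l had 13 N2A and 44 cortex sites, and its shared sites lay 0.131 to 6.67 kb from the end. The strongest, at chr5:96076234-96076284 on the minus strand, had p-values of 2.12e-29 in N2A and 3.61e-17 in cortex and an offset of 7 nt. Efna5 was of another kind: 3 of its 8 shared sites lay within 5 kb of the end and the other 5 between 176 and 253 kb upstream, deep in a gene of 278 kb, with offsets of 2 to 13 nt. Of the 3 near the end, those at 1.69 and 3.69 kb overlapped the cortex site by 1 nt, with an offset of 49 nt.

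Next came 3 genes with 7 shared sites. Ptp4a2, a phosphatase gene, had 10 sites in each list, and 5 of its 7 shared sites lay within 5 kb of the end. Tnpo1, which encodes the nuclear import receptor transportin 1, had 17 N2A and 31 cortex sites, but only 2 of its 7 shared sites overlapped by at least 25 nt. Trps1, a GATA-type zinc finger repressor, had 4 shared sites 2.83 to 3.95 kb from the end and 3 between 151 and 160 kb, and all 7 overlapped by at least 25 nt. Its strongest N2A site was not among them, since the lowest p of its shared sites was 0.000786 and that of all its N2A sites was 1.42e-16.

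Another 6 genes held 6 shared sites each, namely Rbms3, Septin11, Slc7a14, Bmpr2, Cbl and Nsd3. Rbms3, which encodes an RNA-binding protein, had its strongest shared site at chr9:117252269-117252320 on the minus strand, 680 kb from the end of a gene of 1057 kb, with p-values of 7.48e-84 in N2A and 4.21e-13 in cortex and an offset of 6 nt. None of the 6 shared sites of Septin11, a cytoskeletal GTPase, lay within 5 kb of the annotated end, and all lay 6.21 to 10.4 kb from it. In Bmpr2, the type II receptor of bone morphogenetic proteins, 2 N2A sites at 3.92 and 3.98 kb from the end fell on the same cortex site, with overlaps of 39 and 10 nt. Cbl, a ubiquitin ligase, and Slc7a14, of a family of amino acid transporters, had all their shared sites within 6.78 and 5.92 kb of the end, and Nsd3, a histone H3 methyltransferase, had 4 of its 6 at 41.7 to 64.0 kb.

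**Figure D4:**
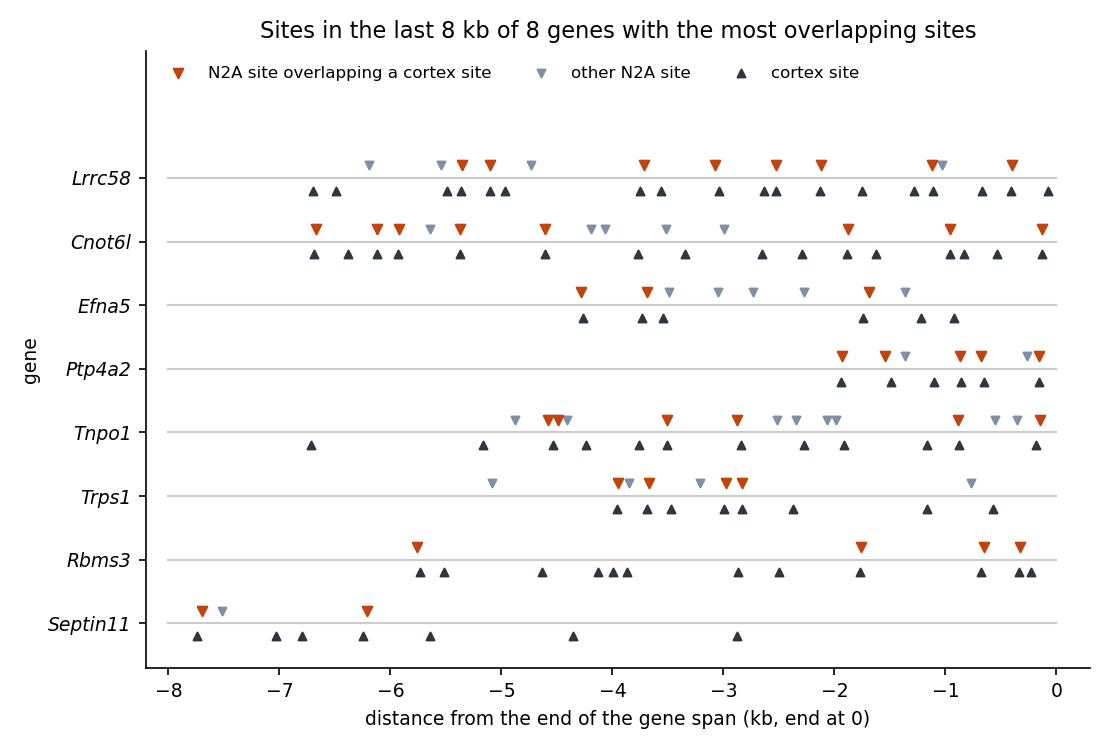
Positions of shared N2A sites and other N2A sites (above the line) and of cortex sites (below it) in the last 8 kb of the 8 genes with the most shared sites, by distance from the end of the gene span (kb, end at 0). Lrrc58 and Cnot6l show 8 shared sites each in this window, paired with cortex sites one by one, and Septin11 shows 2.

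The remaining genes of the leading 20 had 5 shared sites each. They were Emc1, a subunit of the ER membrane protein complex, Tgoln1, a trans-Golgi network protein, Xpo1, the nuclear export receptor, Srsf3, a splicing factor, Cnot6, the paralog of Cnot6l, Ube3a, a ubiquitin ligase, Nufip2, a partner of FMRP, and Larp4b, a La-related RNA-binding protein. In Tgoln1 all 5 shared sites lay in the last 3.50 kb and the strongest in cortex had p-values of 2.58e-20 in N2A and 7.65e-137 in cortex. In Ube3a the 5 offsets ran from -1 to 7 nt. In Emc1 3 of the 5 offsets were 24 to 30 nt. In Larp4b the strongest N2A site, with a p of 2.04e-25, was not shared, and the strongest shared one had a p of 6.65e-05.

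Some genes had every N2A site shared, and others none. Cbl had 6 of 6 shared, Emc1, Srsf3 and Bmpr1a 5 of 5 and Tfdp1 4 of 4. Bmpr1a encodes a type I receptor of bone morphogenetic proteins, and Tfdp1 the partner of E2F transcription factors. At the other end, Msi2, the RNA-binding protein Musashi 2, had 12 N2A and 27 cortex sites with no overlap, although its best cortex p was 2.82e-289. Dpysl2, which encodes the axonal protein CRMP2, had 10 and 18 sites, Irf2bp2, a transcriptional corepressor, 9 and 3, Ywhag, of the 14-3-3 proteins, 6 and 7, and Calu, the calcium-binding protein calumenin, 6 and 5. The strongest N2A site of Irf2bp2 had a p of 3.69e-283 and was still not shared.

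The strongest shared sites in N2A were in Map1b, Scd2, Atp2a2, Rn18s-rs5, Tubb5, Sec61a1, Lrrc58, Ywhaz, Ybx3 and Ncam1. The first 7 had a p of 0 in N2A. Map1b, a neuronal microtubule-associated protein, and Scd2, a fatty acid desaturase, had a p of 0 in both lists, with offsets of 8 and 9 nt at 2.53 and 3.44 kb from the gene end. In Ywhaz, a 14-3-3 protein, the p-values were 1.91e-300 in N2A and 2.98e-309 in cortex, with an offset of 4 nt. Ncam1, a neural cell adhesion molecule, had 2.99e-263 and 3.96e-87, with an offset of 3 nt. Tubb5, a beta-tubulin, was the exception in position: its site at chr17:35834885-35834936 on the minus strand began 42 nt upstream of the cortex site and overlapped it by 9 nt. The offset of the remaining 9 ran from -3 to 9 nt. Rn18s-rs5 carries ribosomal RNA sequence, and its reads cannot be placed on a single copy with certainty.

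Among the 50 sites with identical coordinates, the strongest in N2A was in Atp2a2, the calcium pump SERCA2, at chr5:122456985-122457036 on the minus strand, with a p of 0 in N2A and 6.53e-298 in cortex. Ybx3, a cold shock RNA-binding protein, followed at chr6:131364999-131365049 on the minus strand, 0.166 kb from the gene end, with 1.26e-269 and 1.67e-85. Map7d2, of a family of microtubule-binding proteins, had 2.55e-56 and 2.36e-135 at chrX:159498329-159498379 on the plus strand. Identity of position did not need strength in both lists: in Slc41a2, of a family of magnesium transporters, the p-values were 3.07e-31 in N2A and 0.00978 in cortex. Slc25a33, a mitochondrial carrier, had 3.29e-15 and 5.28e-09.

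The counts in gene lists were set against all coding genes, of which 8.85% had a shared site, against coding genes with an N2A site, of which 64.8% did, and against all N2A sites, of which 41.6% were shared. Differences between a list and these shares were not tested. A gene with more N2A sites has more chances of a shared one, so shares of genes also depend on the number of sites. Of all 21900 coding genes, 2991 had an N2A site and 8468 a cortex site. All 4 ELAV-like genes had at least 1 shared site, and 9 of their 24 N2A sites were shared (37.5%, against 41.6% of all N2A sites). Elavl1 had 3 shared of 13 N2A sites, Elavl2 3 of 5, Elavl3 2 of 2 and Elavl4 1 of 4. The strongest, in Elavl1 at chr8:4286885-4286935 on the minus strand and 2.13 kb from the gene end, had p-values of 3.5e-65 in N2A and 5.65e-14 in cortex and an offset of 11 nt. In Elavl3 the values were 8.78e-18 and 3.18e-182. The site of Elavl4 was weak in both lists, with 0.00980 and 0.0124.

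All 12 SR splicing factors had an N2A site and 10 had a shared one (83.3%, against 64.8% of all coding genes with an N2A site), and 23 of their 40 N2A sites (57.5%, against 41.6% of all N2A sites) were shared. Srsf3 had 5, Srsf1 and Tra2a 4 each and Srsf2 2, and the strongest was in Srsf1, with p-values of 6.42e-102 in N2A and 2.45e-47 in cortex. Of 22 hnRNP genes, 18 had an N2A site and 14 of them a shared one (77.8%), led by Hnrnpd, Hnrnph1 and Syncrip with 3 each. Hnrnpd encodes the AU-rich element binding protein AUF1, and its strongest shared site had 5.1e-58 and 1.12e-50 with an offset of 12 nt. Of 22 neuronal splicing regulators, 14 had an N2A site and 9 of them a shared one (64.3%), close to the share over all coding genes with an N2A site, among them Celf1 with 4 of 10 N2A sites, Rbfox2 with 3 of 6 and Srrm4 with 3 of 3. In these neuronal regulators 19 of 57 N2A sites (33.3%, against 41.6% of all N2A sites) were shared. Mbnl2 had 2 N2A and 22 cortex sites and none shared.

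Of 14 translational repressors and their partners, 13 had an N2A site and all 13 had a shared one, covering 23 of 47 N2A sites. G3bp1, a stress granule protein, had 4 shared, and G3bp2 and Fmr1 had 3 each. Fmr1 encodes FMRP, and its strongest shared site had p-values of 3.95e-06 in N2A and 2.67e-47 in cortex. Of 15 CCR4-NOT genes, 8 had an N2A site and 7 a shared one, and 24 of 43 N2A sites were shared, with 8 in Cnot6l, 5 in Cnot6, 4 in Cnot7 and 3 in Cnot2. Of 26 AU-rich element and decay factors 13 had an N2A site and 9 a shared one, and of 14 Argonaute, TNRC6 and miRNA processing genes 8 and 6, where Ago2, the slicing Argonaute, had 4 of 7 N2A sites shared. The N2A sites shared were 14 of 40 in the decay factors (35.0%) and 9 of 24 in the Argonaute list (37.5%). Of 27 translation factors 19 had an N2A site and 16 a shared one, with 22 of 49 N2A sites shared (44.9%). Of 42 cytosolic ribosomal protein genes 6 had an N2A site and 4 a shared one (9.52% of the list and 66.7% of those with an N2A site), close to the shares of 8.85% and 64.8% over coding genes, and 6 of their 8 N2A sites were shared.

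Other lists held genes of the cytoskeleton, chromatin, protein breakdown and transport. Of 30 actin cytoskeleton genes 25 had an N2A site and 21 of them a shared one (84.0%, against 64.8% of all coding genes with an N2A site). Of their 65 N2A sites 30 were shared (46.2%, against 41.6% of all N2A sites). Cdc42, a small GTPase, had 3 of 7 N2A sites shared and Rac1, another, 2 of 2. Of 32 chromatin regulators 24 had an N2A site and 20 a shared one (83.3%), among them Setd5 with 4, and 33 of 67 N2A sites were shared (49.3%). Of 30 ubiquitin and proteasome genes it was 17 and 12 (70.6%), led by Ube3a, of 23 Rab GTPases 14 and 10 (71.4%), of 18 Ser/Thr phosphatase subunits 11 and 7 (63.6%) and of 18 kinesin motors 5 and 4. Rab10, of vesicle transport, had a shared site with p-values of 4.39e-171 in N2A and 1.6e-146 in cortex and an offset of 1 nt. Kif5c, a neuronal kinesin heavy chain, had 6.62e-30 and 6.12e-271 with an offset of 18 nt.

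Tubulins, stathmins and microtubule-associated proteins had an N2A site in 13 of 27 genes and a shared one in 9, and 12 of 44 N2A sites (27.3%, against 41.6% of all N2A sites) were shared. Of these 44 sites 18 were in Map1b, and 3 of the 18 were shared. Of 7 14-3-3 genes 4 had an N2A site and 3 a shared one, of 13 calcium pumps and release channels 2 and 2, and of 11 fatty acid desaturases and elongases 5 and 4. Those 2 pumps were Atp2b1 and Atp2a2, with 3 of 8 and 2 of 7 N2A sites shared. In the 14-3-3 genes 4 of 15 N2A sites were shared (26.7%), and in the desaturases and elongases 7 of 20 (35.0%).

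Of 28 presynaptic genes 14 had an N2A site and 11 of them a shared one (78.6%, against 64.8% of all coding genes with an N2A site). Of their 37 N2A sites 16 were shared (43.2%, against 41.6% of all N2A sites). Syt1, the calcium sensor of vesicle release, had 162 cortex and 2 N2A sites and both N2A sites were shared, the stronger with p-values of 0.000396 in N2A and 0 in cortex. Snap25 had 37 cortex and 2 N2A sites and none shared. Of 26 postsynaptic genes 7 had an N2A site and 5 of them a shared one (71.4%), and of 22 axon growth genes 11 and 7 (63.6%). The N2A sites shared were 7 of 13 in the postsynaptic genes (53.8%) and 14 of 49 in the axon growth genes (28.6%). The 17 ionotropic glutamate receptor genes had no N2A site although 16 had cortex sites. Over all 21900 coding genes, the counts were 2991 with an N2A site and 8468 with a cortex site. Of 25 voltage-gated channel genes, all with cortex sites, 1 had N2A sites: Cacna1c, an L-type calcium channel subunit, whose 3 N2A sites were all shared, the strongest 422 kb from the gene end with an offset of 8 nt.

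The sympathoadrenal lineage is the one from which neuroblastoma arises. Of 19 sympathoadrenal and neuroblastoma regulators 10 had an N2A site, and 4 had a shared one (Lin28b, Chgb, Alk and Mycn, 1 each), against 64.8% of all coding genes with an N2A site. The other 6 included Phox2a, Hand2, Gata2 and Ret, none of which had a cortex site. All 4 with sites in both lists had a shared one. Of the 25 N2A sites of these regulators 4 were shared (16.0%, against 41.6% of all N2A sites). The site of Mycn, the transcription factor amplified in some neuroblastomas, was weak in both lists, with p-values of 0.00758 in N2A and 0.0407 in cortex. In cell cycle genes 10 of 31 had an N2A site and 4 a shared one, and those 4 were again all that had sites in both lists. Of the 27 N2A sites in cell cycle genes 9 were shared (33.3%). Ccnd1, which encodes cyclin D1, had 4 of 6 N2A sites shared, the strongest with 1.92e-67 in N2A and 0.0806 in cortex.

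Of 29 AU-rich mRNAs described as ELAVL1 or ELAVL4 targets, 13 had an N2A site and 10 of them a shared one (76.9%, against 64.8% of all coding genes with an N2A site), with 21 of 43 N2A sites shared (48.8%, against 41.6% of all N2A sites). They included Ccnd1, Vegfa with 3 of 6, Cdkn1b with 3 of 5 and Xiap, an inhibitor of apoptosis, with 3 of 4. Vegfa, the vascular growth factor gene, had its strongest shared site 0.507 kb from the gene end with p-values of 1.92e-21 in N2A and 1.57e-08 in cortex. Myc had 4 N2A sites and no cortex site. Of 21 immediate early genes 7 had an N2A site and 4 a shared one: Jund with 3 of 3 and Jun, Junb and Fosl2 with 1 of 1 each.

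Oligodendrocyte, endothelial and interneuron markers had no N2A site in 14, 10 and 14 genes, and 10, 3 and 11 of them had cortex sites. Of all 21900 coding genes, 2991 had an N2A site and 8468 a cortex site, and the difference of these lists from those shares was not tested. Of 14 astrocyte, 12 microglia and 14 excitatory neuron markers 1 each had a shared site (7.14%, 8.33% and 7.14%, close to the 8.85% of all coding genes), Glul being that of the astrocytes and Cux1 that of the excitatory neurons. The assay gives binding and not expression, so the markers count genes with sites only.

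**Figure D5:**
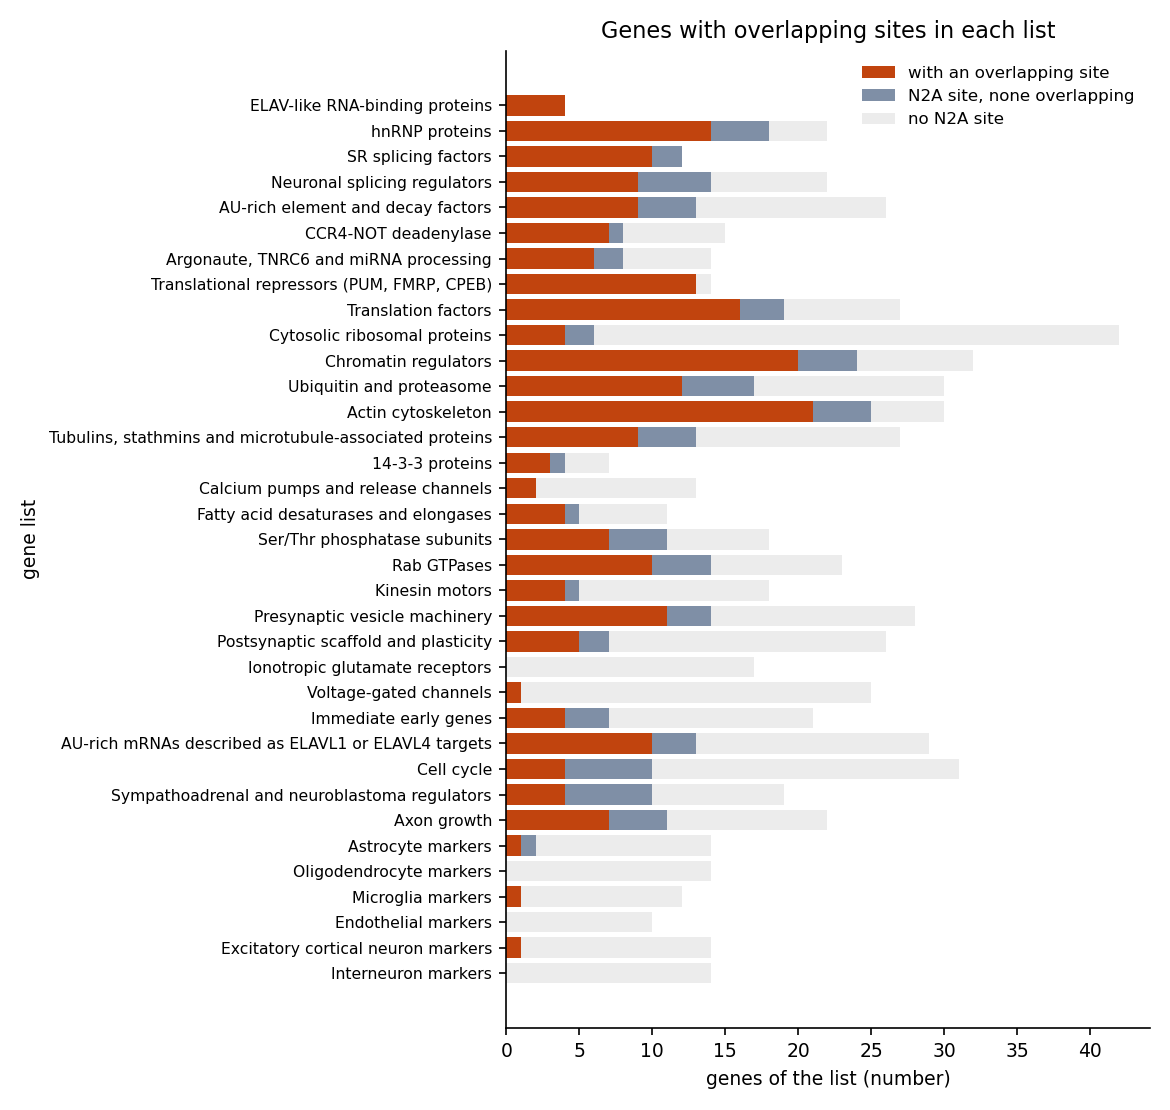
Number of genes in each of 35 gene lists with a shared site, with an N2A site but none shared, and with no N2A site. ELAV-like genes (4 of 4), translational repressors (13 of 14) and SR splicing factors (10 of 12) have a shared site in most members, and ionotropic glutamate receptors, oligodendrocyte, endothelial and interneuron markers have none. Over all coding genes, 8.85% have a shared site.

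Outside coding genes, 22 shared sites lay in long noncoding RNA genes, 13 in small RNA genes and 15 in pseudogenes or other genes. Small RNA genes took 0.426% (0.249 to 0.728) of shared sites, 0.257% (0.143 to 0.459) of other N2A sites and 0.0624% of cortex sites. The Y RNAs Rny1 and Rny3, small cytoplasmic RNAs bound by the Ro protein, had 1 site each, and that of Rny3 had p-values of 1.05e-62 in N2A and 0 in cortex. Rn7sk, the 7SK RNA that holds the elongation factor P-TEFb, had 0.0164 and 3.29e-26. Snord14d, a small nucleolar RNA, had 0.0720 and 0.000118. The other small RNA genes with a shared site were Mir6236 and 8 further snoRNA genes, of which 7 carry a LOC symbol. No shared site, that of Mir6236 included, touched any of the 1005 miRNA hairpins in the sequence table, and 2 other N2A sites did.

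Malat1, an abundant nuclear RNA, had 15 N2A and 3 cortex sites, and 2 N2A sites were shared. The lowest p of these 2 was 3.08e-198 in N2A, and the lowest of their cortex partners, not necessarily at the same site, was 0. Tug1 and Oip5os1 had 1 shared of 2 N2A sites each, and Lncpint 2 of 3. The gene A230006K03Rik had 3 shared of 4 N2A sites beside 76 cortex sites. Rn18s-rs5 had 5 of 7 shared and the mitochondrial ribosomal RNA mt-Rnr2 1 of 4. Sites in ribosomal RNA, small RNA and pseudogene copies are uncertain, because reads of near-identical copies could be placed on either.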

How the data were processed

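Elavl HITS-CLIP peaks of 3 cortex samples (1 list) and 1 N2A sample (1 list) were used as deposited. The p-value of each peak was made by the authors' peak calling. The sources used here do not state the caller, its adjustment, its filters or the merging of samples. Novoalign, without a version, and hg19 are named per the submitters' processing notes. Chromosome names are those of mouse, and coordinates were read as GRCm38. They are unchanged, and no source says if they count from 0 or 1. If starts count from 0, the first printed base of each sequence lies outside its site. No column of per-sample values was present.

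Overlap was at least 1 nt on the same strand with the end not counted, and the partner was the cortex site with the largest overlap. A small RNA gene of 400 nt or less took a site with at least 50% of its length inside, and any other site went to the single coding gene of its strand, then to other genes, of the RefSeq table of GRCm38.p6. Gene strand came from the RefSeq promoter table, which gave it for 17492 of 21900 coding genes and 80.4% of shared sites in coding genes; other genes were taken on either strand. Neighbours were linked at 200 nt. Shares carry Wilson intervals, differences Newcombe intervals and the median an interval from order statistics, all at 95%. Python 3.11.15, numpy 2.4.6, pandas 2.3.3 and scipy 1.17.1 were used, and the steps were tested on simulated data.

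The members, the rules and the 35 gene lists (703 entries, 684 genes) were chosen with earlier results of these data known, so counts in lists are descriptions. Named were the 20 coding genes with the most shared sites, the 10 shared sites with the lowest N2A p, the 5 strongest identical sites, 5 genes with all and 5 with no N2A sites shared, up to 4 members per list and small RNA genes up to 10. Other genes and values named in the text (the 3 with sequence, long noncoding RNAs, list members without a shared site) were chosen after their values were seen. Alternatives were the overlap, strand, interval reading, p threshold, gene-end window, partner, link and gene assignment. Some items named by these rules are not reported here. Motif shares over all sites needed a genome and were not run.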

Additional observations from a re-analysis of the deposited data

How the results depend on the processing

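The share of N2A sites that were shared, 41.6%, was 35.4% to 47.3% with an overlap of at least 25 nt, with ends counted, with p under 0.01 in both lists and with the stronger 50% of either list. It moved to 15.4% with an overlap of at least 45 nt and to 0.0954% on the opposite strand. The difference near the gene end, -2.41 points, was -1.68 points with an interval of -4.04 to 0.679 for a window of 2 kb, which includes 0, and -3.07 to -2.36 under the other 4 alternatives, whose intervals stay below 0. The median offset was 5 or 6 nt under all 4 alternatives tried. The share of shared sites in runs, 3.80%, was 0.623% linked at 100 nt, 16.6% linked at 500 nt and 2.75% with an overlap of at least 25 nt, by construction of the link and of the smaller set. The difference by strength was 11.2 and 4.42 points at overlaps of 25 and 45 nt. Genes with a shared site numbered 1736 to 2010. At 25 nt, 17 of the 20 leading genes stayed within 1.5 times their count, while Tnpo1 had 2 in place of 7, Septin11 3 in place of 6 and Emc1 3 in place of 5. The alternatives by gene strand, by centres and those at 25 or 45 nt for spacing, strength and named genes were chosen after seeing the data. No paired analysis was possible because each group has a single list and no values per sample. Depth is unknown, so which sites are missing from the shorter N2A list for want of reads was not tested. Sequence motifs over all sites were not run.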

Other observations

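The shared sites were found on every numbered chromosome and on X. The share of N2A sites that were shared ran from 35.8% (30.6 to 41.3) of 302 sites on chromosome 12 to 47.7% (40.9 to 54.7) of 199 on chromosome 16, against 41.6% over all chromosomes. On chromosome Y the long noncoding RNA gene Gm33272 held 5 shared sites of 7 N2A and 14 cortex sites, the strongest with p-values of 3.38e-14 in N2A and 2.5e-18 in cortex.

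The 7 cortex sites that touched 2 N2A sites each lay in Bmpr2, Ankrd52, Sqstm1, Arl15, Tnpo1, Zfp423 and Stt3b. In Sqstm1, an autophagy receptor, both N2A sites overlapped the cortex site by 16 nt, at offsets of 34 and -35 nt, with p-values of 0.00223 and 0.000575 in N2A and 7.83e-18 in cortex. In Stt3b, a subunit of the oligosaccharyltransferase, both N2A sites overlapped each other, with offsets of 48 and 10 nt.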
